A study of Mus musculus with 3 samples.

Results

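MicroRNA host transcripts are RNAs that carry a microRNA hairpin in an exon or an intron. Values for 8 of them, Dleu2, H19, Meg3, Rian, Mirg, Ftx, Smc4 and Copz1, were followed among 15058 genes in erythroblasts of the mouse embryo. The 8 genes were chosen by symbol with earlier results of the same libraries known, so their ratios between libraries are given as a description and no test is attached to them. Of the 8 genes, 7 are listed under their own symbol, and Ftx was found by its gene ID under the older symbol B230206F22Rik. The series sequenced total RNA from erythroblasts, which are immature red cells that still have a nucleus. The cells were sorted from peripheral blood at E10.5 on the transferrin receptor CD71 and on Ter119, an antigen of the red-cell surface that increases with maturation. The Drosha-null library came from CD71-positive Ter119-high cells of conditional knockout (cKO) embryos, Drosha fl/fl;cdh5-cre+, with Drosha labelled as null. For the Ter119-low library the same genotype was used, but the cells were CD71-positive and Ter119-low, and the label describes Drosha abundance as that of wild type. The control library came from CD71-positive Ter119-high cells of embryos that were Drosha fl/fl or Drosha fl/+, labelled as wild type in Drosha abundance, so floxed alleles were present in every group. Cdh5 drives Cre in endothelial cells, from which some embryonic blood cells arise. How deletion in these erythroblasts relates to their origin was not tested. The design text describes pools of 5 embryos, and each group had 1 library, which gives no spread between pools to set a difference against.

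Drosha, with its RNA-binding partner Dgcr8, cuts hairpins out of primary microRNA transcripts in the nucleus, and Dicer1 cuts the released hairpin to the mature microRNA in the cytoplasm. A hairpin inside an intron can be cut out while the spliced host RNA is still made, whereas cutting a hairpin that lies in an exon breaks the host RNA itself. In erythroid cells microRNAs are known for their part in maturation, and the family of miR-15 and miR-16 is known for restraining cell cycle genes. The total RNA counts described here measured the host transcripts, not the mature microRNAs.

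The mature microRNAs below stand for the 7 hosts that could be measured and show which of them share a seed, the stretch from base 2 to base 8 that pairs with targets. They are given 5′ to 3′ with the seed in capitals, from RefSeq on GRCm38.p6, where mature sequences were matched for all 27 hairpins of the 8 genes.
mmu-miR-15a-5p (in Dleu2): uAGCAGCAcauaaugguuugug
mmu-miR-16-5p (in Dleu2 and Smc4): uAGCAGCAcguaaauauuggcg
mmu-miR-15b-5p (in Smc4): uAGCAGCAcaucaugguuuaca
mmu-miR-675-5p (in H19): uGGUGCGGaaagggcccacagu
mmu-miR-675-3p (in H19): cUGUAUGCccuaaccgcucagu
mmu-miR-770-3p (in Meg3): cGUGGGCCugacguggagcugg
mmu-miR-370-3p (in Rian): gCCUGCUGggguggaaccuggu
mmu-miR-374b-5p (in Ftx): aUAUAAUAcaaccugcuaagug
mmu-miR-148b-3p (in Copz1): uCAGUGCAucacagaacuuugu

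Dleu2 and Smc4 lie on different chromosomes and carry the same seed. The sequence of miR-16-5p is produced from a hairpin in each of them, and miR-15a-5p and miR-15b-5p share its seed. Among all mouse entries from RefSeq, 10 mature microRNAs have this seed. Across the 8 genes the table held 50 mature sequences with 46 different seeds. The only other seed shared between hairpins of the 8 genes was that of miR-453 and miR-496a-5p, both inside Mirg.

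The hairpins lie in exons of some hosts and in introns of others. GENCODE M21 on GRCm38 annotates 27 hairpins in these genes. By its basic transcripts, 11 overlap an exon of their host and 16 lie in introns. A hairpin that overlaps an exon in any part is counted here as in an exon. Dleu2 (chr14:61602839-61682373, minus strand), a long noncoding RNA first described in a region deleted in human leukaemia, holds 2 hairpins in an intron, Mir16-1 at chr14:61631880-61631972 and Mir15a at chr14:61632027-61632110. H19 (chr7:142575529-142578143, minus strand) is a maternally expressed imprinted RNA of embryonic tissues, with Mir675 in an exon at chr7:142577064-142577147. Meg3 (chr12:109541001-109571726), Rian (chr12:109603940-109661716) and Mirg (chr12:109729764-109749460) are maternally expressed imprinted RNAs on the plus strand of the Dlk1-Dio3 domain. Meg3 holds 2 hairpins, Mir1906-1 in an exon of 2 and Mir770 in an exon of 1 of its 4 basic transcripts. Rian holds 3 hairpins in introns and also spans 13 small nucleolar RNA (snoRNA) genes. Mirg holds 14 hairpins, of which 8 overlap an exon and 6 lie in introns. Of the 8, Mir382, Mir668, Mir412 and Mir369 only reach over the edge of an exon and lie mostly outside it. Ftx (chrX:103560907-103623790, minus strand), a noncoding RNA of the X-inactivation centre, holds Mir421 and Mir374b in introns. Smc4 (chr3:69004738-69034623, plus strand) and Copz1 (chr15:103272714-103299868, plus strand) are protein-coding and carry theirs in introns, Mir15b and Mir16-2 in Smc4 and Mir148b in Copz1.

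**Figure D1:**
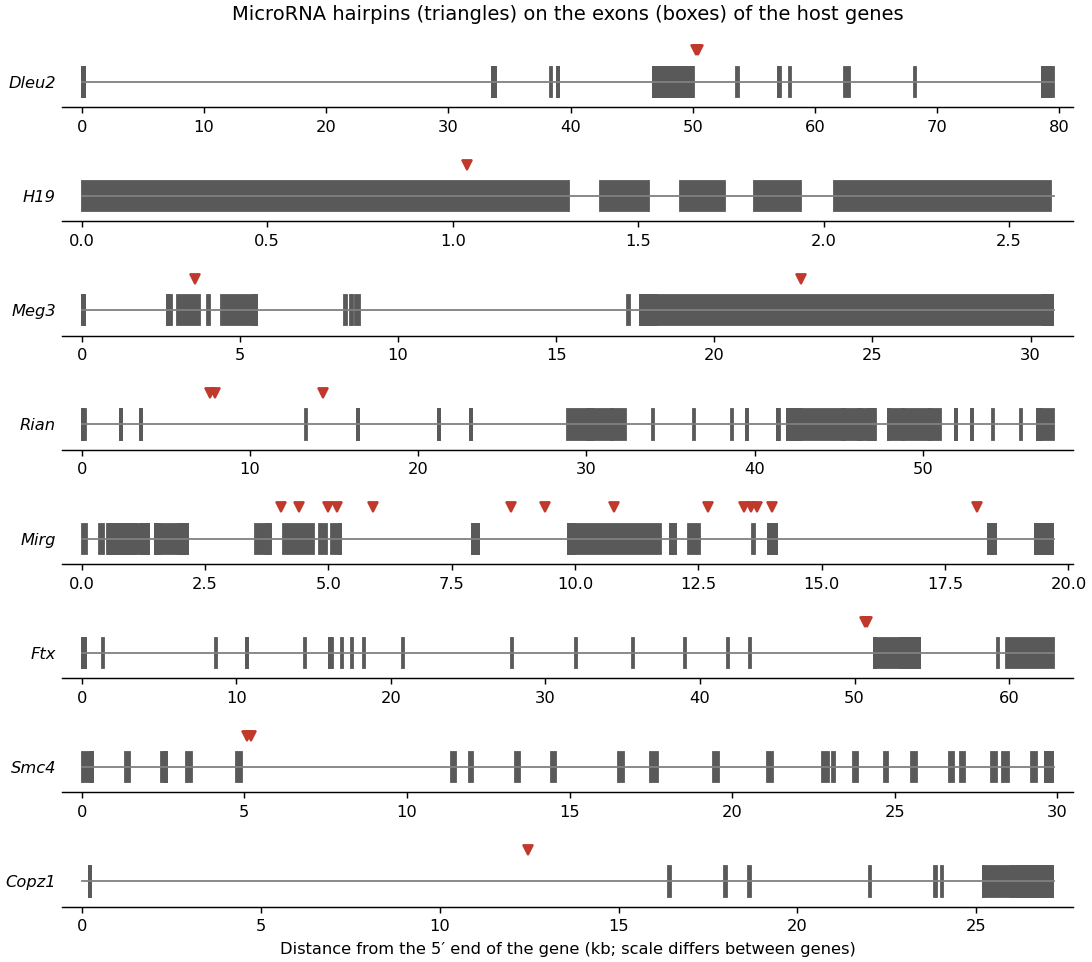
Position of each annotated microRNA hairpin (red triangles) on the exons of the basic transcripts (grey boxes) of its host gene. Distances are in kb from the gene's 5′ end, 1 row a gene with its own scale. Hairpins of H19 and Meg3 sit over exons, those of Dleu2, Rian, Ftx, Smc4 and Copz1 over introns, and the 14 of Mirg over both.

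The libraries held 9325822 (Drosha-null), 9418480 (Ter119-low) and 9497431 (control) counts, with 13896, 13352 and 13279 genes detected in that order. Values in CPM, the counts relative to library size, were scaled by the trimmed mean of M-values (TMM), with factors of 1.20, 0.946 and 0.885, and the floor of 3 counts came to 0.269, 0.337 and 0.357 CPM. Scaling by total counts instead moves every log2 ratio to the control up by 0.43 in the Drosha-null library and by 0.10 in the Ter119-low library. Drosha had 122 counts in the Drosha-null, 244 in the Ter119-low and 324 in the control library, and its log2 ratio, Drosha-null over control, was −1.81 (95% counting interval −2.13 to −1.51). Dgcr8, whose messenger RNA the Drosha complex is known to cut, had 1658, 450 and 317 counts in the same order, and Dicer1 had 2074, 1343 and 1147. These counts cover the whole gene, including any part that the Cre leaves in place. Of the 5 measured genes of the microRNA processing list, Dgcr8 was higher, Drosha was lower, and 3 were not called in the Drosha-null library. All intervals and floors cover counting error only, with each read taken as its own molecule. Reads that carry no molecular identifier can be copies of 1 molecule, which would make the intervals too narrow.

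Levels of the 8 host RNAs spanned a wide range. By FPKM, which divides by gene length, H19, Smc4 and Copz1 were abundant in all libraries and Dleu2, Rian, Meg3, Ftx and Mirg were low. H19 was the highest of the 8 everywhere, at 266 FPKM in the Drosha-null, 437 in the Ter119-low and 529 in the control library, which placed it at rank 160, 114 and 105 of all genes. Smc4 stood at 128 FPKM in the Drosha-null, 91.0 in the Ter119-low and 76.1 in the control library. Copz1 stood at 63.4 FPKM in the Drosha-null, 99.6 in the Ter119-low and 96.5 in the control library. Smc4 was therefore above Copz1 in the Drosha-null library and below it in the other libraries, and in each library their counting intervals did not overlap.

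The low hosts also changed places. In the Drosha-null library Dleu2 led them with 4.77 FPKM (interval 3.74 to 6.0), ahead of Rian with 2.22 (1.74 to 2.79), Ftx with 1.94 (1.53 to 2.42) and Meg3 with 1.20 (0.895 to 1.57). In the Ter119-low library the order was Ftx with 1.43 FPKM (1.08 to 1.85), Meg3 with 1.09 (0.813 to 1.43), Rian with 0.54 (0.321 to 0.852) and Dleu2 with 0.39 (0.143 to 0.852). In the control library it was Ftx with 1.74 FPKM (1.36 to 2.20), Meg3 with 1.52 (1.17 to 1.94), Dleu2 with 1.15 (0.684 to 1.81) and Rian with 0.81 (0.534 to 1.18). Neighbours in these orders had overlapping counting intervals, except Dleu2 above Rian in the Drosha-null library. Rian and Meg3, which adjoin each other in the order of the Ter119-low library, overlapped by little.

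**Figure D2:**
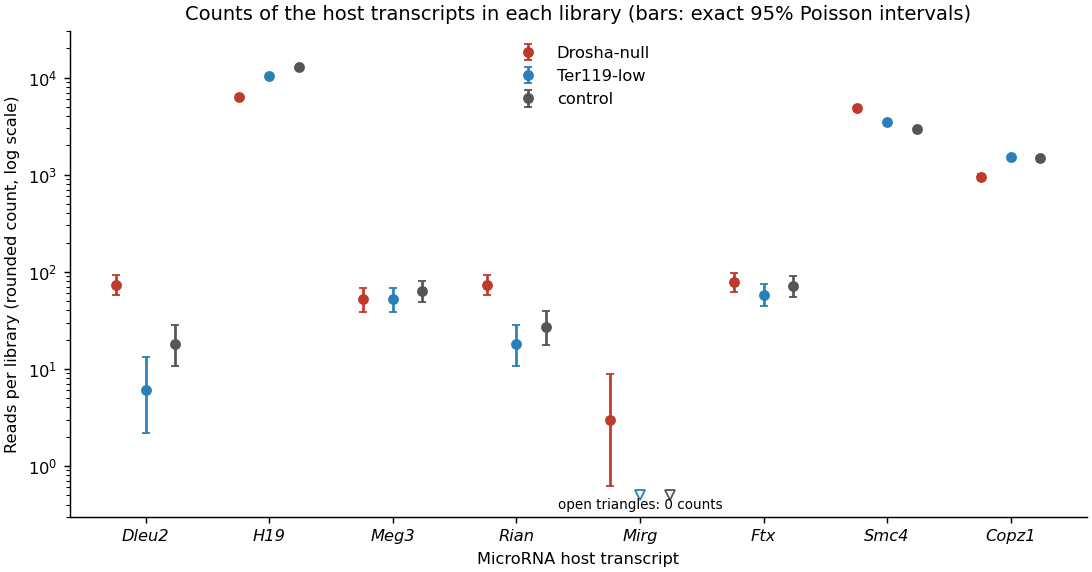
Rounded read counts of the 8 host RNAs in the Drosha-null, Ter119-low and control library (log axis), with exact 95% Poisson intervals and open triangles for 0 counts. Dleu2 and Rian had 73 counts each in the Drosha-null library and fewer in the others, whereas H19 and Copz1 had the fewest there.

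Against the control, the Drosha-null library held more Dleu2 and Rian RNA and less H19 and Copz1 RNA. A gene at 1 or more CPM in either library counted as measured, and a measured gene was called higher or lower when it differed by 2-fold or more and the 95% counting interval of its ratio left out 1. By this rule 2 of the 7 measured hosts (Dleu2, Rian) were higher and 2 (H19, Copz1) were lower, against 12.4% higher and 7.81% lower of all 10769 measured genes. The other 3 measured hosts, Meg3, Ftx and Smc4, were not called. The median log2 ratio was −0.27 over the 7 hosts and −0.02 over all measured genes. By total counts the calls of H19 and Copz1 were lost, at log2 ratios of −1.0 and −0.61, while Dleu2 and Rian were still called higher. At that scaling 23.0% of all measured genes were higher and 2.70% lower, so the 2 higher hosts of 7 stood near the share of all genes.

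**Figure D3:**
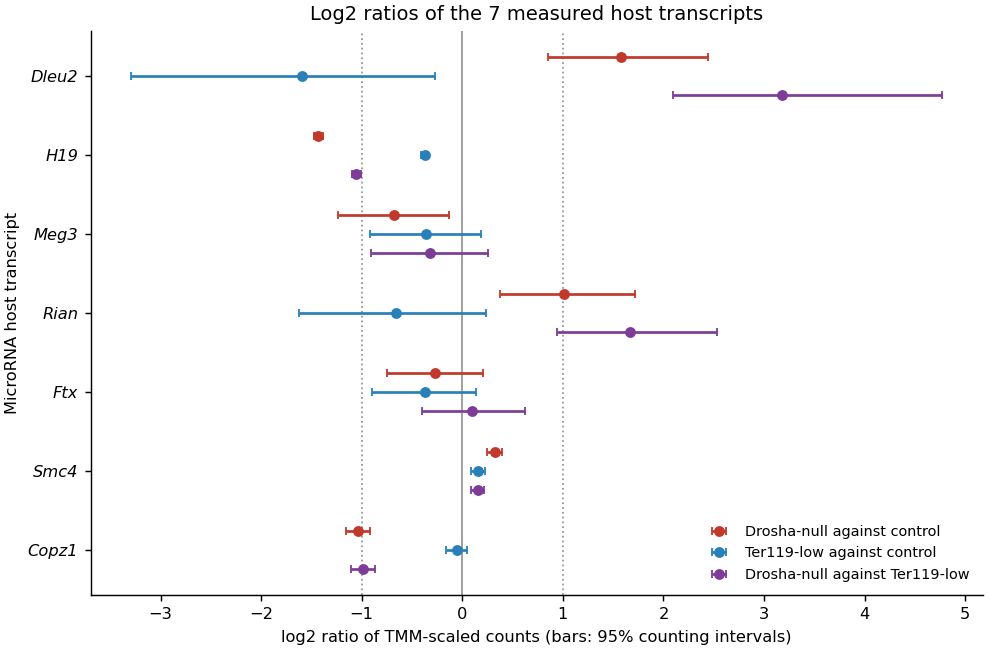
Log2 ratios of TMM-scaled counts for the 7 measured host RNAs in the 3 comparisons between libraries, with 95% counting intervals and dotted lines at a ratio of 2 either way. Dleu2 runs from −1.59 (Ter119-low against control) to 3.18 (Drosha-null against Ter119-low), while all 3 ratios of Smc4 lie between 0.16 and 0.32.

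Dleu2, the host of miR-15a and miR-16-1, differed most between libraries. It had 73 counts in the Drosha-null, 6 in the Ter119-low and 18 in the control library, or 6.55, 0.673 and 2.14 CPM. The counting interval of the Drosha-null library lay above the others, while those of the Ter119-low and control libraries overlapped. Drosha-null over control, its log2 ratio was 1.58 (0.85 to 2.44), a fold of 2.99. Ter119-low over control, it was −1.59 (−3.29 to −0.27), which was called lower on 6 counts. Set directly against the Ter119-low library, the Drosha-null library had a ratio of 3.18 (2.09 to 4.77), at percentile 99.3 of all measured genes. Endothelial and cardiac muscle markers were also at their highest sums in the Drosha-null library, 271 and 296 counts against 101 and 75 in the control. The mesenchymal, leukocyte and megakaryocyte sums were highest there too, while the erythroid and trophoblast sums were lowest. Single markers went the other way, such as Cd68 (13 counts in the Drosha-null, 17 in the control library) and Gp9 (11 and 14). The yolk sac or liver sum, at 4 counts in the Drosha-null, 3 in the Ter119-low and 0 in the control library, was too low to rank. The part of any of these cells in the Dleu2 value was not tested. In bulk RNA, fewer cells of a type and less RNA per cell cannot be told apart.

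Among the 8 genes listed for the Dleu2 locus, 7 were measured and 3 were higher in the Drosha-null library than in the control, Dleu2, Kcnrg and Ebpl, with 0 lower. Over all measured genes 12.4% were higher and 7.81% lower, and Dleu2 itself is among the 3. Kcnrg, a regulator of potassium channels, had 80 counts in the Drosha-null, 29 in the Ter119-low and 14 in the control library, with a log2 ratio to the control of 2.07 (1.28 to 3.04) in the Drosha-null library. Kcnrg overlaps the Dleu2 span on the opposite strand, as does the ubiquitin ligase gene Trim13, which had 22, 33 and 23 counts in that order. The exons of neither gene overlap those of Dleu2, and whether the counting used strand is not given in the sources used here. Exons of the noncoding RNA Gm26916, on the opposite strand, do overlap those of Dleu2. Gm26916 is not among the listed genes, and whether any of its reads entered the Dleu2 count was not tested. Ebpl, a relative of the sterol isomerase Ebp, had 35, 6 and 8 counts in the same order. The abundant neighbours did not pass the rule: Kpna3, a nuclear import receptor, stood at a log2 ratio of 0.14 (0.02 to 0.27) and Rnaseh2b, a subunit of an RNase H, at −0.69 (−0.89 to −0.49) in the Drosha-null library. The locus list had a median of 0.14 in that comparison.

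H19, the host with its hairpin in an exon and the highest level, was lower in the Drosha-null library. It had 6311 counts in the Drosha-null, 10497 in the Ter119-low and 12827 in the control library, or 566, 1178 and 1527 CPM. The 3 counting intervals did not overlap. Relative to the control its log2 ratio was −1.43 for the Drosha-null library (−1.47 to −1.39), a fold of 0.371, and −0.37 for the Ter119-low library (−0.41 to −0.34). Between the cKO libraries, Drosha-null over Ter119-low, it was −1.06 (−1.10 to −1.01), called lower, and by total counts −0.72, not called. The summed counts of erythroid markers (1580435 against 2349261 in the control) and of trophoblast markers (13 against 132) were also lowest in the Drosha-null library. Embryonic globin genes made up most of the erythroid sum. The part of erythroid and trophoblast cells in the H19 value was not tested.

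Igf2, the paternally expressed growth factor gene that shares its imprinting control region with H19, did not follow it. Igf2 had 1303 counts in the Drosha-null, 483 in the Ter119-low and 613 in the control library. The log2 ratio of Igf2, Drosha-null over control, was 0.68 (0.54 to 0.82), under the size rule, and Drosha-null over Ter119-low it was called higher with a fold of 2.16. By FPKM, 37.9 in the Drosha-null and 17.7 in the control library, Igf2 was past 2-fold over the control. Of the 5 measured genes of the H19-Igf2 domain list, H19 and Mrpl23 were lower and Cdkn1c was higher in the Drosha-null library than in the control. The shares over all measured genes were 7.81% lower and 12.4% higher, and H19 was known beforehand. Mrpl23, a mitochondrial ribosomal protein gene beside H19, had 203, 316 and 378 counts (Drosha-null, Ter119-low, control) with a log2 ratio to the control of −1.30 (−1.56 to −1.05). Cdkn1c, a maternally expressed cell cycle inhibitor, had 182, 74 and 67 counts in that order and a ratio of 1.03 (0.62 to 1.46). Kcnq1ot1, the paternally expressed noncoding RNA of the adjoining domain, had 1881, 2102 and 1603 counts and was not called. The list's median was −0.18.

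Rian was higher in the Drosha-null library than in the other libraries, unlike Meg3 from the same domain. Rian had 73 counts in the Drosha-null, 18 in the Ter119-low and 27 in the control library, or 6.55, 2.02 and 3.21 CPM. The interval of the Drosha-null count lay above the others, which overlapped each other. Its log2 ratio to the control in the Drosha-null library was 1.01 (0.37 to 1.72), a fold of 2.01 that only just met the size rule and that fell to 1.95 with 2 counts added in place of 0.5. Drosha-null over Ter119-low it was 1.67 (0.94 to 2.53), called higher.

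Meg3, a noncoding RNA with growth-restraining activity in human cell lines, had 52 counts in the Drosha-null, 52 in the Ter119-low and 63 in the control library. All 3 counting intervals overlapped. Set against the control, its log2 ratio was −0.68 for the Drosha-null library (−1.24 to −0.13), not called, and −0.36 for the Ter119-low library (−0.92 to 0.19). Its ratio between the cKO libraries was −0.32 (−0.91 to 0.26), and its sign turned to 0.01 by total counts and to 0.14 by the authors' FPKM, in which the gene length entered for Meg3 was 4721 bases in the Drosha-null table and 5128 in the Ter119-low table. Mirg, the host of most of the hairpins, had 3 counts in the Drosha-null library (exact interval 0.619 to 8.77) and 0 counts in the Ter119-low and control libraries (exact upper bound 3.69 counts each). All 3 values are at or under the floor of 3 counts. It was under the limit for measurement in every library, so no ratio is given.

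Of the 7 measured genes of the Dlk1-Dio3 list, Rian was higher and Rtl1 was lower in the Drosha-null library than in the control. Among all measured genes 12.4% were higher and 7.81% lower. Rtl1, a paternally expressed retrotransposon-derived gene that is known to be cut through antisense microRNAs, had 3, 8 and 12 counts in the Drosha-null, Ter119-low and control libraries, so its ratio of 0.211 rests on few reads (log2 interval −4.87 to −0.52). Dlk1, the paternally expressed Notch-related ligand gene of the domain, had 52, 19 and 28 counts and a log2 ratio of 0.47 (−0.20 to 1.20) to the control. The abundant neighbours outside the imprinted cluster, Ppp2r5c and Wars, stood at −0.30 and −0.73 and were not called. The list's median was −0.30.

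Ftx did not differ beyond counting error. It had 78 counts in the Drosha-null, 58 in the Ter119-low and 71 in the control library, with overlapping intervals. Its log2 ratio, Drosha-null over control, was −0.27 (−0.75 to 0.21), turning to 0.16 by total counts and by FPKM, and it was −0.37 against the control in the Ter119-low library (−0.90 to 0.14). These intervals leave room for differences smaller than 2-fold.

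Other transcripts of the X-inactivation centre gave values on both sides of the control. Xist, the RNA that coats the inactive X chromosome, had 2993 counts in the Drosha-null, 3958 in the Ter119-low and 1818 in the control library, and was called higher in the Ter119-low library only (log2 ratio 1.04). Each library pools embryos whose sexes the labels do not give. Jpx, a noncoding activator of Xist that overlaps Ftx on the opposite strand without shared exons and is listed as Enox, had 39, 45 and 70 counts and a ratio of −1.24 (−1.86 to −0.67) in the Drosha-null library. Chic1, a palmitoylated membrane protein gene, had 39, 8 and 4 counts and was called higher there (2.73, 1.41 to 4.82). Rlim, a ubiquitin ligase gene, had 1860, 1443 and 1307 counts and was not called. Of the 6 measured genes of the list, 1 was higher and 1 was lower in the Drosha-null library than in the control, with a median of 0.21. The shares over all measured genes were 12.4% higher and 7.81% lower.

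Smc4, a core ATPase of the condensin complexes that fold chromosomes for mitosis, carries hairpins with the seed of the Dleu2 microRNAs in an intron, and its level differed by less than 2-fold between libraries. It had 4834 counts in the Drosha-null, 3464 in the Ter119-low and 2921 in the control library, or 434, 389 and 348 CPM. The counting intervals did not overlap, with the highest count in the Drosha-null library. Its log2 ratios to the control were 0.32 (0.25 to 0.39) in the Drosha-null and 0.16 (0.09 to 0.23) in the Ter119-low library, folds of 1.25 and 1.12 that stayed under the size rule. By total counts and by the authors' FPKM the Drosha-null ratio was 0.75, outside that interval but still under the size rule. Its partner Smc2 had 2515, 2388 and 2284 counts and a log2 ratio of −0.27 (−0.35 to −0.19) in the Drosha-null library. Smc4 was the highest and Smc2 the lowest of the 8 measured condensin genes in that comparison, and 0 of the 8 were called in any of the 3 comparisons (medians 0.03 for Drosha-null against control, −0.03 for Ter119-low against control and −0.07 for Drosha-null against Ter119-low).

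Copz1, the zeta subunit of the coatomer that coats vesicles returning from the Golgi to the endoplasmic reticulum, was lower in the Drosha-null library. It had 948 counts in the Drosha-null, 1505 in the Ter119-low and 1473 in the control library, or 85.1, 169 and 175 CPM. The Drosha-null count lay below the others, whose intervals overlapped. Its log2 ratios to the control were −1.04 (−1.16 to −0.92) in the Drosha-null and −0.05 (−0.16 to 0.05) in the Ter119-low library. Drosha-null over Ter119-low it was −0.99 (−1.11 to −0.87), an inverse fold of 1.99 that fell just short of the size rule, beside the 2.06 against the control that just met it.

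By TMM scaling, none of the other measured coatomer subunits was called with Copz1. Of the 9 measured COPI genes, Copz1 was lower and 0 were higher in the Drosha-null library than in the control (median 0.04). Among all measured genes 7.81% were lower and 12.4% higher. Copa, the alpha subunit, had 1647, 761 and 672 counts (Drosha-null, Ter119-low, control) and a log2 ratio of 0.89 (0.76 to 1.02), under the size rule. By the authors' FPKM, Copa (38.7 in the Drosha-null, 15.5 in the control library) and Copg2 (8.96 and 4.16) differed by more than 2-fold. Copz1 did not, at a log2 ratio of −0.61, so which coatomer genes pass depends on the scaling. Copb2, a beta subunit, had 1497, 1231 and 1094 counts and stood at 0.04 (−0.07 to 0.16). Copz2, the paralog of Copz1 and host of miR-152, whose 3p arm has the same seed as miR-148b-3p, had 23, 9 and 21 counts and stood at −0.28 (−1.19 to 0.65) against the control. In the Ter119-low library Copz2 was the only COPI gene called lower, at −1.26 on 9 counts.

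**Figure D4:**
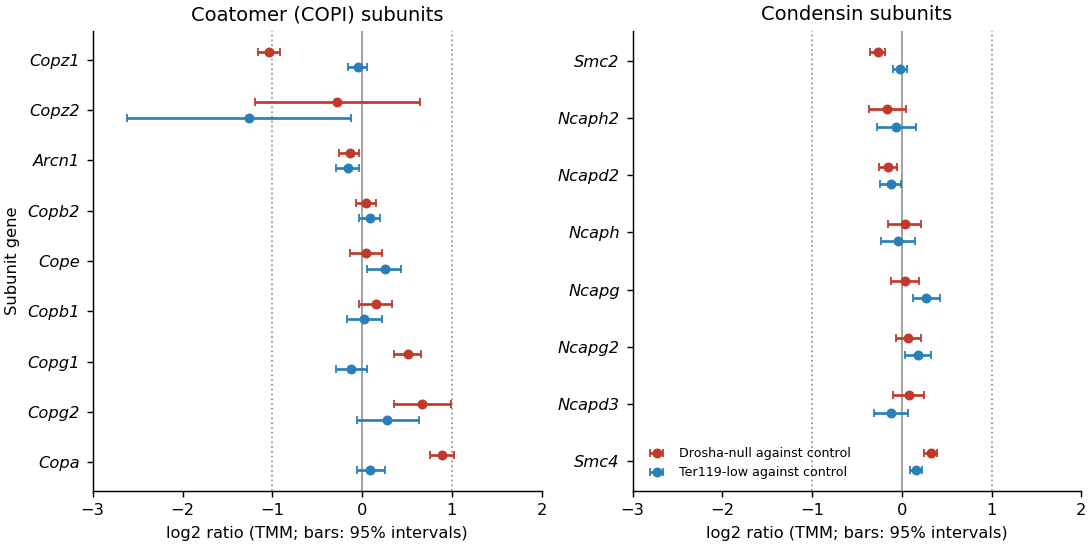
Log2 ratios of TMM-scaled counts to the control for the measured coatomer and condensin subunit genes, Drosha-null (red) and Ter119-low (blue). Bars are 95% counting intervals and dotted lines mark a ratio of 2 either way. Copz1 lies at −1.04 in the Drosha-null library with Copa at 0.89, while the condensin genes lie between −0.27 and 0.32.

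In the Ter119-low library fewer hosts were called against the control than in the Drosha-null library. Dleu2 was the only one called of the 7 measured, and it was lower, against 2.90% higher and 2.76% lower of all 10591 measured genes. The median of the 7 ratios was −0.37, beside 0.00 over all measured genes, and 6 of the 7 ratios were under 0, Smc4 being the exception. Gate and genotype differed together in this comparison and cannot be told apart.

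Between the cKO libraries, Drosha-null over Ter119-low, Dleu2 and Rian were higher and H19 was lower, which is 3 called of 7 measured, against 10.8% higher and 5.94% lower of all 10795 measured genes. The median was 0.10 over the hosts and −0.02 over all. These libraries share the genotype and differ in gate and in the labelled Drosha abundance. The comparisons with the control share the control library, so their ratios are not independent of each other.

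The 8 genes were also set among all hosts that the annotation gives. In the tables, 554 genes hold at least 1 of 688 annotated hairpins on their own strand, and 447 were measured in the Drosha-null library and the control. Of these, 73 (16.3%) were higher and 20 (4.47%) were lower in the Drosha-null library, beside the 12.4% and 7.81% of all measured genes. Without the 8 genes the counts were 71 higher and 18 lower of 440. The median log2 ratio was 0.08 over the hosts and −0.02 over all measured genes. Hosts with a hairpin that overlaps an exon, in whole or in part, had 20 higher and 5 lower of 100 (median 0.18). Hosts with hairpins in introns only had 53 higher and 15 lower of 347 (median 0.07). H19 is thus among the 5 exon hosts that were lower, Copz1 is among the 15 intron hosts that were lower, and Dleu2 and Rian are among the 53 intron hosts that were higher.

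Gene length moved with these shares. The measured hosts had a median length of 3805 bases, against 2903 over all measured genes. Above the median length of all genes, 18.2% of hosts were higher and 3.70% lower in the Drosha-null library, beside 15.2% and 3.94% of all genes of that length. Below it, 12.7% of hosts were higher and 6.0% lower, beside 9.55% and 11.7% of all genes. The part of length in the difference was not tested further. By total counts 131 hosts were higher and 7 lower of 451, beside 23.0% and 2.70% of all measured genes.

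**Figure D5:**
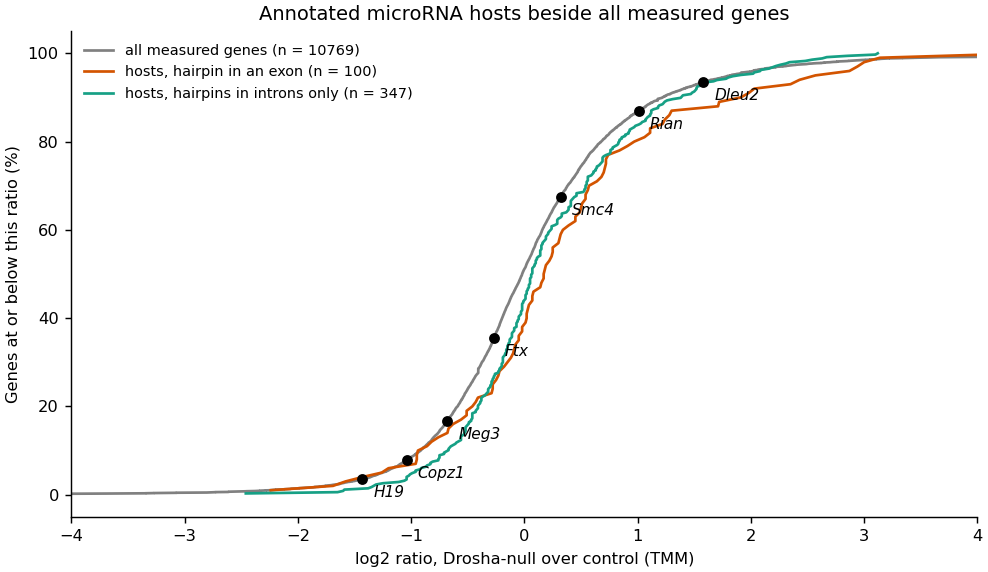
Cumulative share of genes by log2 ratio, Drosha-null over control, for annotated hosts with a hairpin in an exon, hosts with hairpins in introns only, and all measured genes (grey), drawn from −4 to 4. The black points set the 7 measured host RNAs on the curve of all genes, from H19 at −1.43 to Dleu2 at 1.58, and both host curves lie to the right of the grey curve around their medians of 0.18 and 0.07.

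The other comparisons gave fewer host calls in the Ter119-low library and similar ones between the cKO libraries. In the Ter119-low library 16 were higher and 15 lower than in the control of 446 measured (3.59% and 3.36%), with a median of 0.01, beside 2.90% and 2.76% of all measured genes; by total counts this was 18 and 7 of 437, beside 3.35% and 2.12% of all measured genes. Drosha-null over Ter119-low, 73 were higher and 18 lower of 453 (16.1% and 3.97%), with a median of 0.10, beside 10.8% and 5.94% of all measured genes; by total counts it was 113 and 8 of 454, beside 18.7% and 2.79%.

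The highest annotated hosts by the interval bound nearest 0, Drosha-null over control, were Csf2rb2, Rcan3, Csf2rb and Myh3. Csf2rb (16030, 3901 and 2966 counts in the Drosha-null, Ter119-low and control libraries) and Csf2rb2 (4921, 997 and 624 counts) encode near-identical beta chains of cytokine receptors, hold a Mir7676 hairpin each and have fractional counts, so the split of reads between them is uncertain. Rcan3, an inhibitor of calcineurin that hosts Mir700 in an exon, had 218 counts in the Drosha-null, 17 in the Ter119-low and 22 in the control library (log2 ratio 2.87, 2.27 to 3.60). Myh3, the embryonic skeletal myosin heavy chain gene, had 81, 5 and 8 counts. The lowest were Arrb1, Josd2, Elof1 and H19. Arrb1, a beta-arrestin gene with Mir326 in an intron, had 1706 counts in the Drosha-null, 4231 in the Ter119-low and 3890 in the control library (−1.60, −1.68 to −1.51). Josd2, a deubiquitinase gene, had 272, 635 and 643 counts, and Elof1, a transcription elongation factor gene with Mir7084 in an exon, had 131, 287 and 319.

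A list of 46 well-known hosts, 41 of them listed, held calls in both directions. Of its 34 measured genes, 6 were higher (Mir22hg, Pank1, Ctdspl, Ppargc1b, Clcn5 and Cox10) and Arrb1 was lower in the Drosha-null library than in the control, with a median of 0.11. The shares over all measured genes were 12.4% higher and 7.81% lower, with a median of −0.02. Mir22hg, the noncoding host of miR-22, had 26, 8 and 2 counts in the Drosha-null, Ter119-low and control libraries. Ppargc1b, a coactivator of mitochondrial genes that hosts miR-378a, had 40, 21 and 3 counts. Ank1, the red-cell ankyrin gene that hosts miR-486, had 6421, 6288 and 5676 counts and a log2 ratio of −0.23 (−0.28 to −0.18), and the ubiquitin ligase gene Huwe1, host of miR-98, had 6902, 5777 and 5098 counts and a ratio of 0.03. Mir17hg, the noncoding host of the miR-17 to miR-92a cluster, had 461, 272 and 309 counts and was not called.

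The genes nearest to Dleu2 and H19 in the pair of log2 ratios to the control (Drosha-null, Ter119-low), over 3 libraries and 6744 genes at 10 or more CPM, were found by the distance between the pairs. For Dleu2 they included Map4k3 (1.36 and −1.06), Il10rb (1.25 and −0.91), Ctnnal1 (1.79 and −0.83) and Enc1 (1.08 and −0.97), at distances of 0.574 to 0.802. These 4 reached 10 CPM in the Drosha-null library alone, and Dleu2 itself, at 6.55 CPM at most, did not, so which genes are nearest depends on that limit and the distances are not comparable with those for H19. For H19 they were Dcun1d5, Cox7b, Nop10, Ccdc23 and Snhg5, at distances of 0.0298 to 0.0817. Dcun1d5 (−1.44 and −0.40) lay closest to H19 (−1.43 and −0.37).

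Markers of the sorted cells and of other cells also differed between libraries. All 12 erythroid markers were detected, with a summed count of 1580435 in the Drosha-null, 2161923 in the Ter119-low and 2349261 in the control library. Of the 12, 5 were called lower in the Drosha-null library than in the control, against 7.81% of all measured genes. The embryonic globin genes led them, with Hba-x at 869310, 1077084 and 1083439 counts, Hbb-y at 525547, 761814 and 855491, and Hbb-bh1 at 133985, 242266 and 328997. These globin genes made up most of the sum. Gata1 (729, 628 and 632 counts, log2 ratio −0.20 to the control) and Epor (1151, 1138 and 1177, −0.44) were not called in the Drosha-null library. The erythroid sum was lowest in the library where H19 and Copz1 were lowest, and its part in the Copz1 value was not tested either.

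Markers of cells outside the erythroid line were low in every library. The 12 endothelial markers summed to 271 counts in the Drosha-null, 107 in the Ter119-low and 101 in the control library, with Cldn5 and Tie1 at 0 in the Ter119-low library. Of 7 measured in the first comparison, 2 were higher (Pecam1 and Tek) and 0 lower in the Drosha-null library than in the control. Among all measured genes 12.4% were higher and 7.81% lower. Over the 3 libraries together the most abundant were Vwf (38, 26 and 15 counts), Cd93 (32, 18 and 15) and Egfl7 (32, 20 and 12). In the Drosha-null library Pecam1 was highest (55, 4 and 3 counts). In the control it was Kdr (26, 9 and 22 counts), which was not called, Drosha-null over control. The 7 cardiac muscle markers summed to 296, 59 and 75 counts in the same order, led by Ttn (181, 42 and 37), Actc1 (86, 9 and 19) and Tnnt2 (20, 0 and 16), with 2 of 3 measured higher. Myh6 was at 0 in the cKO libraries and Myh7 and Nppa were at 0 in the control. Both sums, like those of the mesenchymal, leukocyte and megakaryocyte lists below, were highest where Dleu2 and Rian were highest. The part of any of these cells in the Rian value was not tested.

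The 10 mesenchymal markers summed to 170 counts in the Drosha-null, 100 in the Ter119-low and 99 in the control library, led by Col3a1 (21, 29 and 22), Pdgfra (45, 15 and 14) and Col1a2 (32, 13 and 22). Of 6 measured, 2 were higher and 0 lower in the Drosha-null library, with Dcn at 0 in the Ter119-low and control libraries. Trophoblast markers, 3 of 8 listed, summed to 13, 107 and 132 counts, with Synb at 6, 85 and 109, Ascl2 at 7, 22 and 20, and Gcm1 at 0, 0 and 3. Both measured trophoblast genes were lower in the Drosha-null library, as H19 was. Yolk sac or liver markers, 3 of 7 listed, gave 4, 3 and 0 counts (Ttr 4, 0 and 0, Apob 0, 2 and 0, Apoa1 0, 1 and 0). Leukocyte markers, 6 of 7 listed, gave 76, 24 and 49 counts (Lyz2 27, 18 and 22, Cd68 13, 5 and 17, Mpo 23, 0 and 6), with 1 of 3 measured higher. The 6 megakaryocyte markers gave 177, 124 and 101 counts (Itga2b 126, 96 and 79, Gp9 11, 19 and 14, Gp1ba 39, 5 and 3), with 1 of 3 measured higher and with Pf4 and Ppbp at 0 in the Drosha-null library.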

How the data were processed

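Total RNA of 3 libraries, 1 in each group, was read from 2 tables, 1 for each cKO library with the same control. By the file headers, the deposited values are expected counts (estimated read counts, fractional for 1309 genes) and FPKM values, with 0.001 FPKM entered at 0 counts. The authors' log2 ratios and p-values, also deposited, were not used. The aligner, counter, strand setting, build and annotation behind them were not given in the sources used here. Both tables (14640 and 14300 genes, 13882 in both) were joined by gene ID, with 0 control counts that differed, and counts were rounded. A gene listed in 1 table alone was given 0 counts in the other library.

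Counts were scaled by TMM (edgeR 4.0.16, R 4.3.3), and ratios were taken with 0.5 counts added and exact 95% Clopper-Pearson intervals, in Python 3.11.15, SciPy 1.17.1, NumPy 2.4.6 and pandas 2.3.3, with plots by matplotlib 3.10.9. With 1 library a group no test was fitted. The counting step was tested on simulated data. Scaling by DESeq2 1.42.0 size factors or total counts, FPKM ratios, other folds, filters and added counts were tried. Hosts are genes whose GENCODE M21 span on GRCm38 holds a hairpin on the same strand. For this, 14928 genes (99.1%) were placed by symbol where it was unique, and otherwise by gene ID.

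The 8 hosts, the gene lists and the naming rule were chosen with earlier results of these data known. The rule takes the 8 hosts, Drosha, Dgcr8 and Dicer1, from each locus, complex and host list the 2 most abundant measured genes and the 2 with the largest ratios, the 4 highest and 4 lowest annotated hosts, the 5 genes nearest to Dleu2 and to H19, and the 3 most abundant markers of each cell type. Other genes named were picked after their values were seen. A gene that the rule takes is not reported here.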

Additional observations from a re-analysis of the deposited data

How the results depend on the processing

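No paired analysis was possible because each group has 1 library, and no library could be left out. Against the control, hosts called among the 8 genes in the Drosha-null library numbered 4, and 2 by total counts and by the authors' FPKM with the fold rule alone, where H19 and Copz1 missed the fold. Annotated hosts called in that comparison numbered 93, with 164 at a fold of 1.5 and 141 by FPKM. In the Ter119-low library they numbered 31, and 5 at 5 CPM, where fewer genes are measured. Drosha-null over Ter119-low they numbered 91, with 156 at a fold of 1.5 and 56 at 5 CPM. With both directions added, all other counts of calls stayed within 1.5 times. By direction several moved further. For example, total counts moved the host calls to 131 higher and 7 lower, against 73 and 20, in the Drosha-null library over the control, and 5 CPM to 47 and 18; the splits of the other comparisons by total counts are given above. Of 105 alternative values of the hosts' log2 ratios, 89 lay inside the counting interval of the value reported and 16 outside it, and 0 of those called changed sign. Uncalled ratios that changed sign were those of Ftx and Meg3, given above, and of Copz1 in the Ter119-low library against the control, at 0.04 by total counts and by FPKM. Depth limits Mirg, and the intervals of Dleu2, Rian, Meg3 and Ftx, which rest on 6 to 78 counts.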
